A study of Lactuca sativa with 18 samples.

Results

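Clemente (CL), a romaine lettuce of medium browning, was set against Tall Guzmaine (TG), its high browning parent, in cut midribs stored cold for 3 days. The comparison took every library labelled with these cultivars and this day, which gave 2 of CL and 2 of TG, or 4 of the 18 libraries of the series. The series sequenced RNA from midribs of CL, of the low browning parent Parris Island Cos (PC) and of TG, frozen on day 0, day 2 or day 3 after cutting, with 2 libraries per cultivar and day. CL was bred by selection from a cross of PC with TG, so each gene in CL could be set beside its level in both parents. Per the labels, all heads had been cooled and trucked cold to the laboratory before the midribs were cut into short pieces and kept at 5 °C, so day 0 tissue had already been in cold storage as whole heads. The day 3 libraries of CL held 59153901 and 35739638 counts, and those of TG held 50375868 and 45161758 counts. Whether both libraries of a group come from different heads is not stated in the labels. A p-value here therefore covers only the spread between replicate libraries, part of which may be technical. That spread was estimated over all 12 day 0 and day 3 libraries of CL, TG and PC.

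Cut lettuce browns when phenolic compounds, made by the phenylpropanoid pathway after wounding, are oxidised by polyphenol oxidases and peroxidases to quinones that polymerise into brown pigments. In intact cells the enzymes and their substrates lie in separate compartments, and cutting brings them together. The midrib is the pale, water-rich central vein of the leaf and is the tissue in which browning of cut romaine is most easily seen. A midrib holds parenchyma, vascular tissue, epidermis and latex-filled cells, and in such bulk tissue fewer cells of a type and less RNA per cell cannot be told apart. The deposited tables identify genes by number, and the name table used here adds a locus symbol and a class of gene but no product, so no gene below is given a function and the midrib label was not checked against marker genes.

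After 3 days, a small share of genes passed the test between CL and TG, and most of those that passed differed several-fold. Of 21757 genes tested, 171 passed an adjusted p of 0.05 (0.786%; edgeR quasi-likelihood test, Benjamini-Hochberg adjustment over all tested genes, used for every adjusted p below). In CL, 116 of them were higher (0.533% of the genes tested) and 55 were lower (0.253%). The difference was at least 2-fold for 169 of the 171 and at least 4-fold for 114, with genes at 0 counts in 1 cultivar put at the lower bound that is explained below. Across all tested genes the median absolute log2 fold change was 0.29, and 2092 genes had an unadjusted p under 0.05. In CPM, the unit of all levels below (counts scaled by the library total times its normalisation factor), the CL and TG libraries did not overlap for any of the 171 genes, nor for 46.7% of all tested genes. Some other fits called more genes: 697 of 21757 with DESeq2, 761 of 19678 in the 4 compared libraries alone and 1169 of 20549 in the 6 day 3 libraries. A replicate block in the model gave fewer, 127 of 21757, of which 120 were among the 171. In the main model the number of calls rested on all 4 libraries. It was 60 and 69 without replicate 1 and replicate 2 of CL, and 71 and 66 without replicate 1 and replicate 2 of TG. Of the 171 genes, 40 passed in each of these 4 fits, 88 passed in none of them, and none changed sign.

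**Figure D1:**
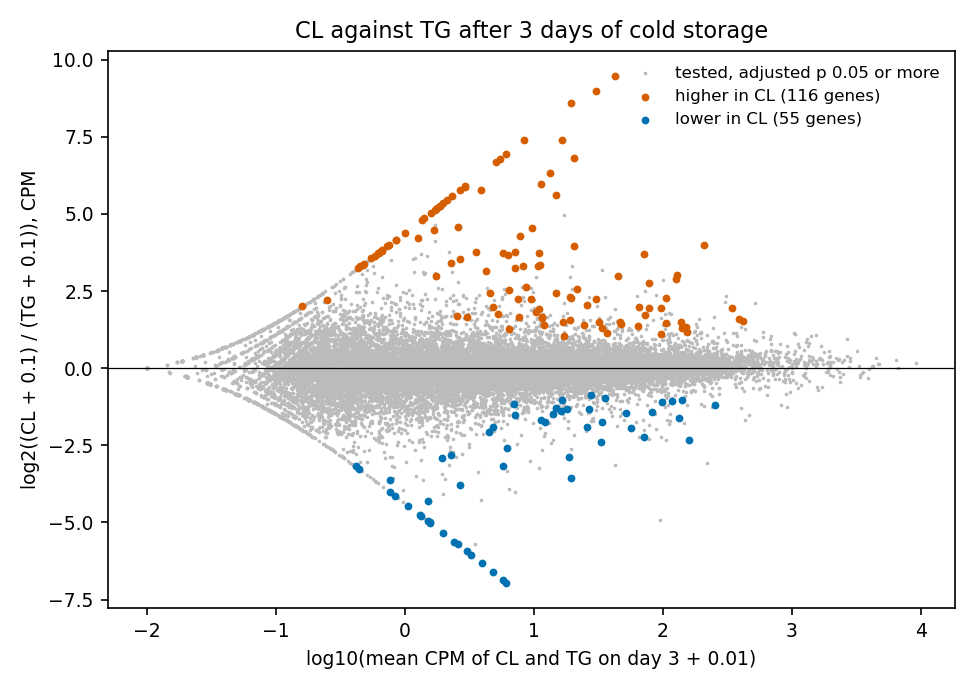
Each point is 1 of the 21757 genes tested, with its mean level in CL and TG on day 3 (log10 axis, in CPM) against the log2 ratio of CL to TG (0.1 CPM added to both means); orange points are the 116 genes higher in CL and blue points the 55 genes lower in CL. The called genes spread over the range of levels, and those along the outer diagonal edges have 0 counts in 1 cultivar.

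Some genes were counted in 1 cultivar and not at all in the other. At 1 CPM or more in both CL libraries and 0 counts in both TG libraries stood 34 of the 46150 GeneIDs (0.0737%), and 28 of them passed the test. The opposite pattern, 1 CPM or more in both TG libraries and 0 counts in both CL libraries, was met by 23 GeneIDs (0.0498%), of which 17 passed. These are the fixed criteria of the lists, and they use the same libraries that the test compares. Neither the direction of their members nor the number that passed is therefore a result. TG had 0 counts on day 0 as well for 26 of the 34, and CL had 0 counts on day 0 for 20 of the 23. The limit that 0 counts allow was taken as 3 fragments per library, or 6 counts where both mates of a fragment are counted (0.12 CPM in TG and 0.136 CPM in CL, counting error only). Against it, the level in CL was at least 9.57-fold to 323-fold higher over the 34, and the level in TG at least 8.22-fold to 89.9-fold higher over the 23.

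Among genes at 0 counts in TG, the highest level was that of the protein-coding gene LOC111900676. It was at 37.2 and 40.5 CPM in CL, against 0 counts in both TG libraries, which makes it at least 323-fold higher in CL (adjusted p = 2.19e-05 by edgeR). PC, the other parent, had 37.3 and 40.5 CPM, so CL and PC overlapped. On day 0 the gene stood at 90.3 and 78.2 CPM in CL and at 4 and 0 counts in TG. The lncRNA gene LOC111878437 had 17.7 and 15.5 CPM in CL and 0 counts in TG (at least 139-fold, adjusted p = 0.000633 by edgeR), beside 13.9 and 13.3 CPM in PC. The lncRNA gene LOC111908487 had 11.7 and 12.6 CPM in CL and 0 counts in TG (at least 101-fold, adjusted p = 0.000139 by edgeR), beside 13.7 and 11.7 CPM in PC. In all 3 genes CL lay close to PC and far from TG. The same held for LOC111883580, which is protein-coding (5.05 and 6.64 CPM in CL, 0 counts in TG, 5.28 and 4.46 CPM in PC). For the lncRNA gene LOC111912621, PC was higher (5.74 and 5.86 CPM in CL, 0 counts in TG, 9.66 and 9.09 CPM in PC). All 5 genes passed without each of the 4 libraries in turn.

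A further group was present in TG only as a trace of counts. GeneID_111888072, which the name table does not list, had 58.0 and 63.5 CPM in CL, against 2 counts and 0 counts in TG. With 2 counts taken as 1 fragment, the ratio of summed fragments, scaled by library size, was 3006 (95% interval 539 to 118800 from an exact binomial, counting error only; adjusted p = 2.19e-05 by edgeR). The protein-coding gene LOC111912663 had 86.6 and 84.3 CPM in CL, against 0 counts and 2 counts in TG, a ratio of 4289 (95% interval 769 to 169500 by the same method; adjusted p = 0.00313 by edgeR). Without replicate 1 of TG the adjusted p of LOC111912663 was 0.0507. LOC111889655 had 31.5 and 34.3 CPM in CL, against 0.193 and 0 CPM in TG (adjusted p = 0.000844 by edgeR). LOC111888091 had 7.35 and 7.99 CPM in CL, against 0 and 0.083 CPM in TG (adjusted p = 0.00317 by edgeR). Both are protein-coding, and all 4 genes were expressed in PC at levels from 7.35 to 71.5 CPM.

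In the list of 34, PC divided the genes. PC was at 1 CPM or more in both of its day 3 libraries for 21 genes, all of which passed the test of CL against TG. For 12 genes PC had 0 counts on day 3, and these 12 also had 0 counts in PC on day 0. The remaining gene lay between. The 12 genes were therefore counted in CL and in neither parent on day 3, at a mean of 1.16 to 10.9 CPM in CL (median 1.84 CPM). TG was at 0 counts on day 0 for 11 of them. The other, LOC111889197 (named after its values were seen), had 10 and 0 counts in TG on day 0. In CL it had 73.8 and 125.1 CPM on day 0, but 1.56 and 1.13 CPM on day 3. Of the 12 genes, 6 passed the test. The PC libraries enter the estimate of spread in that test, and the 21 genes had a higher median in CL (3.52 CPM). The shares that passed can therefore not be compared between the 21 and the 12 genes.

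On day 3, the highest of these CL genes without counts in either parent was GeneID_111902100, which is not in the name table. It had 11.6 and 10.3 CPM in CL on day 3 and 10.9 and 8.93 CPM in CL on day 0, against 0 counts in the 4 TG and 4 PC libraries of both days (at least 90.9-fold over TG on day 3; adjusted p = 0.00269 by edgeR). The lncRNA gene LOC111890099 had 10.03 and 10.27 CPM in CL on day 3 and 19.2 and 19.3 CPM on day 0, again with 0 counts in every TG and PC library of both days (at least 84.5-fold over TG; adjusted p = 0.00173 by edgeR). In the reference assembly LOC111890099 overlaps another gene, LOC111890101, and no source used here gives the strand setting of the counting, so reads of such a pair cannot be told apart. GeneID_111895254 had 6.15 and 4.50 CPM in CL on day 3, with 0 counts in TG and PC (at least 44.4-fold over TG; adjusted p = 0.00707 by edgeR, and 0.0692 without replicate 1 of CL). The other members that passed, LOC111907886, LOC111902098 and GeneID_111914279, were lower, and are named because they complete the group of 6.

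**Figure D2:**
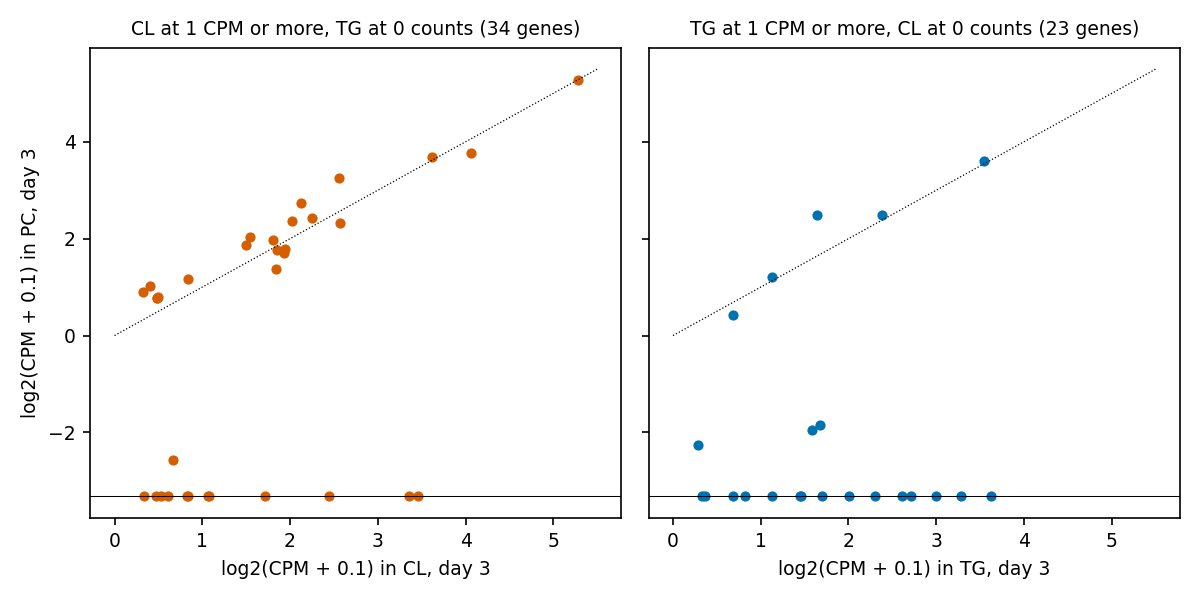
Each point is a gene with 0 counts in both day 3 libraries of 1 cultivar and 1 CPM or more in both of the other; the x axis is its mean level in the cultivar that has it and the y axis its mean level in PC on day 3 (log2 of CPM + 0.1), with the left panel for genes present in CL and the right panel for genes present in TG. The dotted line marks equal levels and the solid line marks 0 counts in PC, on which 12 of the 34 genes of the left panel and 15 of the 23 genes of the right panel lie.

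Among the 23 genes present in TG and at 0 counts in CL, PC had 0 counts for 15, so CL matched PC at 0 there. The lncRNA gene LOC111892365 was the highest, at 0 counts in CL against 13.0 and 11.5 CPM in TG (at least 89.9-fold higher in TG, adjusted p = 0.00182 by edgeR). The protein-coding gene LOC111911451 had 0 counts in CL against 9.54 and 9.71 CPM in TG (at least 70.8-fold higher in TG, adjusted p = 0.00314 by edgeR). LOC111888716, a lncRNA gene, had 0 counts in CL against 7.90 and 7.88 CPM in TG (at least 58.0-fold higher in TG, adjusted p = 0.00314 by edgeR). GeneID_111885181, which is not in the name table, and LOC111918000, which is protein-coding, followed at a mean of 6.479 and 6.002 CPM in TG. All 5 genes had 0 counts in PC and 0 counts in CL on day 0. The call of LOC111918000 was lost without replicate 1 of CL (adjusted p = 0.055), and the calls of the other 4 were kept without each library in turn.

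For 5 of the 23 genes both parents had the transcript while CL did not. GeneID_111906364, not in the name table, had 0 counts in CL, 12.7 and 11.3 CPM in PC, and 14.03 and 9.042 CPM in TG (at least 84.8-fold higher in TG than in CL, adjusted p = 0.000407 by edgeR). The lncRNA gene LOC111904360 had 0 counts in CL, 6.29 and 4.68 CPM in PC, and 6.19 and 4.02 CPM in TG (at least 37.5-fold higher in TG, adjusted p = 0.00114 by edgeR). The parents overlapped in both genes. The other members of this group, GeneID_111914417, GeneID_111898398 and GeneID_111917561, were at lower levels in TG, and are named because they complete it. All 5 passed the test of CL against TG and had 0 counts in CL on day 0 as well. In the remaining 3 of the 23 genes PC lay between these cases.

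The other called genes had counts in both cultivars. Of the 116 genes higher in CL, TG had counts in 80, with a median fold of 5, and of the 55 genes lower in CL, CL had counts in 36, with a median fold of 3.29. The largest decrease in CL, among these, that kept its call without each of the 4 libraries was in LOC111898383, which is protein-coding. It had 3.23 and 2.65 CPM in CL, against 34.7 and 37.0 CPM in TG (log2 fold change -3.60, SE 0.35, adjusted p = 0.00158 by edgeR). PC was also low, at 4.67 and 5.74 CPM, and on day 0 the gene was at 0.338 and 0.747 CPM in CL, against 8.41 and 9.76 CPM in TG. In both cultivars the gene stood higher on day 3 than on day 0, and CL was below TG on each day.

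The other 4 genes of the 12 lowest that had counts in CL, all at 5 CPM or more in TG and protein-coding, each lost the call without at least 1 library. LOC111892795 had 0.206 and 0.338 CPM in CL, against 4.47 and 5.68 CPM in TG (log2 fold change -4.24, SE 0.59, adjusted p = 0.012 by edgeR). It overlaps LOC111892797 in the reference assembly, and its adjusted p was 0.19, 0.104 and 0.0674 without replicate 1 of CL, replicate 2 of CL and replicate 2 of TG. LOC111886140 had 1.10 and 1.07 CPM in CL, against 11.5 and 9.56 CPM in TG (log2 fold change -3.28, SE 0.40, adjusted p = 0.00423 by edgeR), and 2.10 and 1.30 CPM in PC. Its adjusted p was 0.0824 and 0.0707 without replicate 1 and replicate 2 of CL. LOC111893307 had 4.95 and 3.88 CPM in CL, against 29.6 and 36.3 CPM in TG (log2 fold change -2.90, SE 0.49, adjusted p = 0.0268 by edgeR), and LOC111920578 had 1.89 and 1.52 CPM in CL, against 12.8 and 8.63 CPM in TG (log2 fold change -2.64, SE 0.47, adjusted p = 0.0322 by edgeR). In both, PC lay between, at 14.1 and 12.4 CPM for LOC111893307 and at 7.63 and 3.81 CPM for LOC111920578. Neither of these calls was kept without any of the 4 libraries, where the adjusted p ran from 0.0768 to 0.305.

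**Figure D3:**
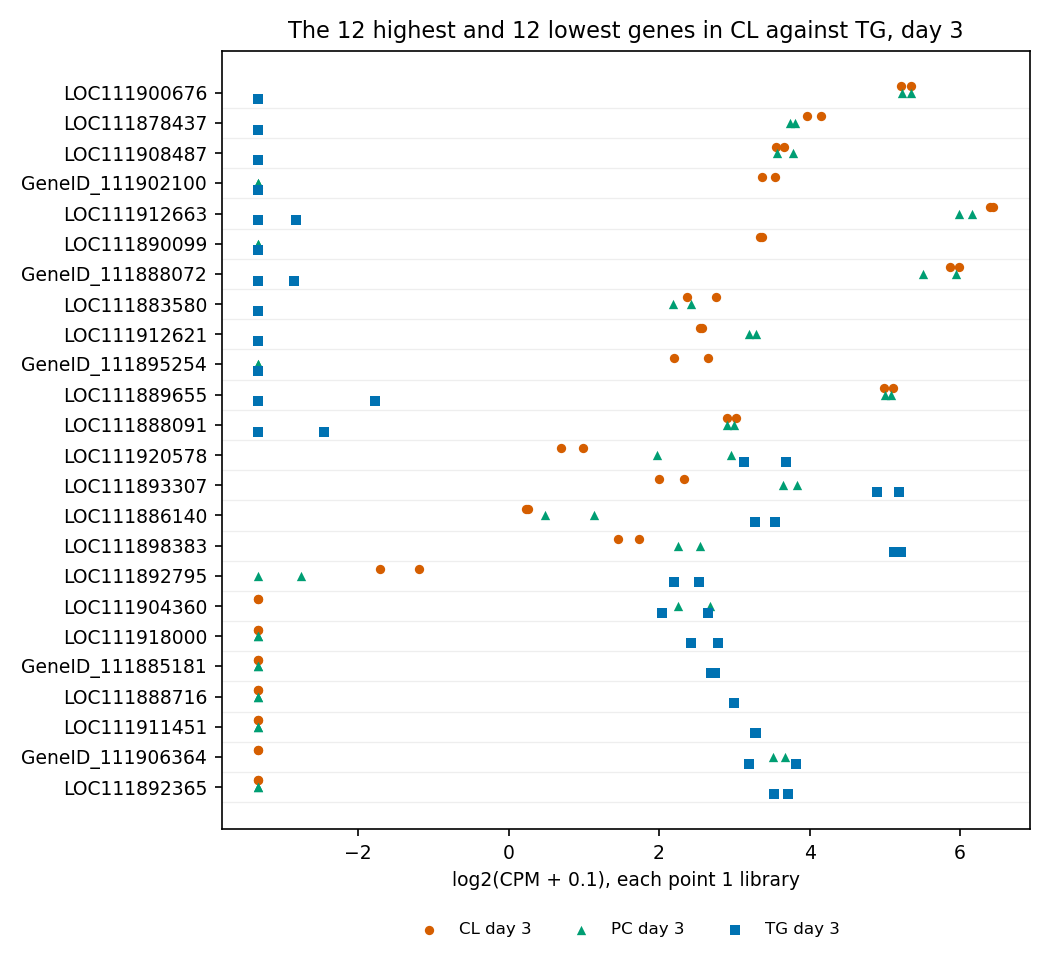
The 12 genes with the highest and the 12 with the lowest log2 fold change of CL against TG on day 3 (among called genes averaging at least 5 CPM in the higher cultivar) are listed down the page, and each marker is 1 library on the x axis (log2 of CPM + 0.1), orange circles for CL, green triangles for PC and blue squares for TG. PC lies with CL in 9 of the 12 upper genes and at 0 counts in the other 3, and the leftmost markers are libraries with 0 counts.

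Abundant transcripts were among the called genes too. At 100 CPM or more in the higher cultivar stood 27 of the 171, of which 19 were higher in CL and 8 lower, and 1.19% of the 2268 tested genes at this level were called. The genes of this paragraph were chosen after their values were seen, as the 3 that kept their call without each of the 4 libraries and the 2 with the highest level in CL. LOC111880353 had 222.9 ± 7.66 CPM in CL, against 30.0 ± 9.11 CPM in TG (SD, n = 2 each; log2 fold change 2.89, SE 0.24, adjusted p = 0.000759 by edgeR), and PC stood between at 116.9 CPM. LOC111906252 had 176.7 ± 22.2 CPM in CL, against 36.1 ± 4.31 CPM in TG (SD, n = 2 each; log2 fold change 2.29, SE 0.19, adjusted p = 0.000759 by edgeR), with PC at 42.6 CPM, near TG. GeneID_111901946 went the other way, at 23.6 and 25.8 CPM in CL, against 131.1 and 103.3 CPM in TG (log2 fold change -2.25, SE 0.25, adjusted p = 0.0028 by edgeR). PC had 94.11 and 70.56 CPM of GeneID_111901946, so CL lay below both parents. Without any 1 library, the adjusted p of these 3 genes was at most 0.0459.

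The 2 most abundant genes in CL rested on the libraries more strongly. LOC111895670 had 619.3 ± 34.3 CPM in CL, against 216.3 ± 5.14 CPM in TG (SD, n = 2 each; log2 fold change 1.52, SE 0.24, adjusted p = 0.0165 by edgeR), and its adjusted p ran from 0.104 to 0.158 without each library in turn. LOC111880341 had 584.3 ± 30.2 CPM in CL, against 192.9 ± 43.3 CPM in TG (SD, n = 2 each; log2 fold change 1.60, SE 0.20, adjusted p = 0.00535 by edgeR). Its adjusted p was 0.0515 without replicate 2 of CL and 0.0639 without replicate 1 of TG. PC had 610.5 CPM of LOC111895670 and 725.9 CPM of LOC111880341. Of the 27 abundant genes, 16 lost their call whichever of the 4 libraries was left out.

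The day 0 libraries are in neither group of the day 3 contrast and gave the same contrast in freshly cut midribs. Both contrasts came from a single model with a shared estimate of spread for each gene. The calls of day 0 and day 3 are therefore not independent. On day 0, 4596 genes differed between CL and TG (21.1%), 2215 of them higher in CL (10.2%) and 2381 lower (10.9%), and the median absolute log2 fold change over all tested genes was 0.64. With no normalisation factor the day 0 split was 1389 higher and 4626 lower, with the median of all genes at -0.37 on the log2 scale. Of the 171 genes of day 3, 167 had the same sign on day 0 and 152 were called in the same direction, 104 of the 116 higher in CL and 48 of the 55 lower. Their median absolute log2 fold change was 3.01 on day 3 and 2.82 on day 0 with genes at 0 counts in 1 cultivar at their lower bound, and 3.37 and 3.44 with fitted values, which for such genes depend on the prior count. The gene called in the opposite direction on day 0 was LOC111890249, and 18 genes were not called on day 0.

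**Figure D4:**
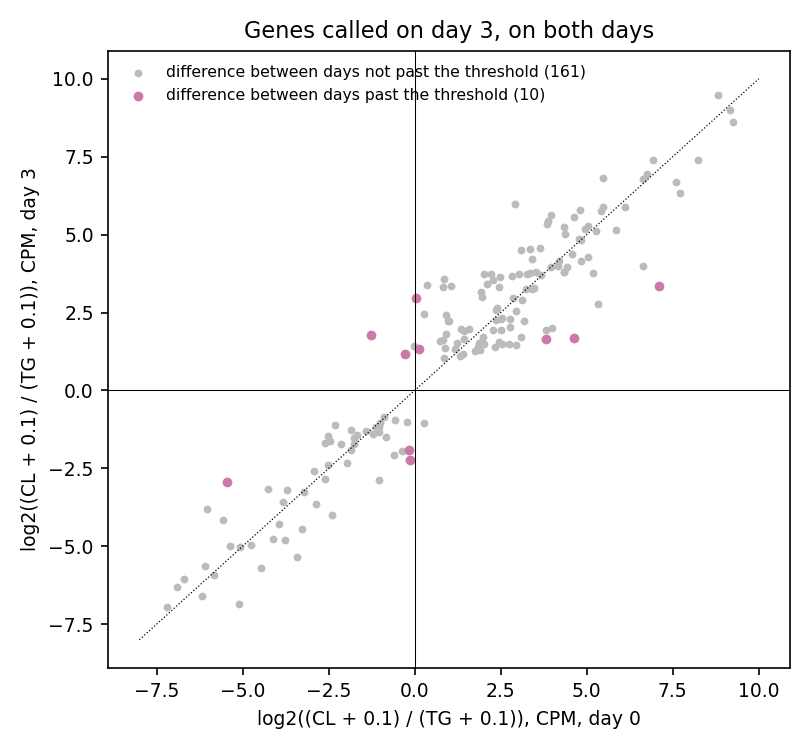
Each point is 1 of the 171 genes called on day 3, with its log2 ratio of CL to TG on day 3 (y axis) against that on day 0 (x axis), 0.1 CPM added to all means; pink points are the 10 genes whose ratio differed between the days in the test, and the dotted line marks equal ratios. Nearly all points lie in the upper right or the lower left, and 167 of the 171 genes had the same sign on both days. The genes were picked by their day 3 difference, and the same-sign share over all tested genes was not counted.

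Whether the CL and TG difference itself changed between the days was tested as an interaction in the same model, which shares its day 3 libraries with the main comparison. It passed for 214 genes (0.984%), of which 123 had a higher ratio of CL to TG on day 3 (0.565%) and 91 a lower one (0.418%). With no normalisation factor it passed for 398 and 91. Among the 171 genes it passed for 10, and 5 of these had not been called on day 0. LOC111893175, LOC111918965, LOC111919272, LOC111908419 and LOC111889116 lay outside the naming rule, which took the 5 with the lowest adjusted p, and were chosen after their values were seen, to complete the 10. All 10 calls of the interaction were lost without replicate 1 of CL, replicate 2 of CL or replicate 1 of the TG day 3 libraries, where the adjusted p ran from 0.063 to 0.226. The same 10 calls numbered 4 without replicate 2 of the TG day 3 libraries, 4 without each CL day 0 library, 2 without replicate 2 of the TG day 0 libraries and 10 without its replicate 1. The sign of the interaction did not change in any of these fits for the 10 genes.

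In 5 of the 10 genes, CL and TG differed on day 3 but not past the threshold on day 0. LOC111893175 had 78.6 and 81.7 CPM in CL, against 9.22 and 10.9 CPM in TG, on day 3, and 14.6 and 9.59 CPM in CL, against 10.4 and 13.3 CPM in TG, on day 0 (interaction log2 2.96, SE 0.52, adjusted p = 0.0372 by edgeR). The CL libraries of day 3 stood apart from all other CL and TG libraries of this gene, and PC was likewise high on day 3 (65.9 and 74.5 CPM) and low on day 0 (9.88 and 24.6 CPM). The day 3 call of LOC111893175 was lost without replicate 1 of TG (adjusted p = 0.0961) and without replicate 2 of TG (adjusted p = 0.0684). LOC111889116 had 46.8 and 54.7 CPM in CL, against 20.4 and 25.1 CPM in TG, on day 3, and 8.46 and 6.78 CPM in CL, against 8.30 and 10.3 CPM in TG, on day 0 (interaction log2 1.45, SE 0.27, adjusted p = 0.0404 by edgeR). Its libraries were higher on day 3 in both cultivars, and its day 3 call was lost without any of the 4 libraries (adjusted p 0.0833 to 0.226). LOC111919272, which overlaps LOC111919273 in the reference assembly, had 211.5 and 219.9 CPM in CL, against 84.4 and 87.9 CPM in TG, on day 3, and 81.0 and 74.1 CPM in CL, against 74.8 and 66.4 CPM in TG, on day 0 (interaction log2 1.19, SE 0.22, adjusted p = 0.0393 by edgeR). Its day 3 call was lost without replicate 1 of TG (adjusted p = 0.0542).

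The other 2 genes of the 5 were low in CL on day 3. GeneID_111901946, described above among the abundant genes, had 75.6 and 81.1 CPM in CL, against 88.9 and 82.9 CPM in TG, on day 0, a log2 fold change of -0.13 (interaction log2 -2.11, SE 0.34, adjusted p = 0.0269 by edgeR). PC had 34.45 and 20.98 CPM of it on day 0, and was higher on day 3. LOC111918965 had 11.7 and 9.91 CPM in CL, against 41.7 and 39.5 CPM in TG, on day 3, and 36.4 and 34.8 CPM in CL, against 39.8 and 39.5 CPM in TG, on day 0 (interaction log2 -1.75, SE 0.31, adjusted p = 0.0372 by edgeR). In both genes the CL day 3 libraries were lower than all other CL and TG libraries. The day 3 call of LOC111918965 was lost without replicate 2 of CL (adjusted p = 0.0619).

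LOC111890249, a protein-coding gene, crossed over. It had 8.20 and 8.19 CPM in CL, against 2.35 and 2.32 CPM in TG, on day 3, so CL was higher by 1.81 on the log2 scale (SE 0.26, adjusted p = 0.00905 by edgeR). On day 0 it had 1.26 and 1.09 CPM in CL, against 3.35 and 2.62 CPM in TG (log2 fold change -1.34, adjusted p = 0.00668 by edgeR). The interaction was 3.15 (SE 0.37, adjusted p = 0.0134 by edgeR). PC was above both cultivars on day 0, at 14.5 and 18.8 CPM, and close to CL on day 3, at 8.81 and 9.72 CPM. Its day 3 call was lost without any of the 4 libraries (adjusted p 0.0787 to 0.108).

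In 3 protein-coding genes CL exceeded TG on both days, and by more on day 0. LOC111914027 had 20.1 and 20.7 CPM in CL, against 2.35 and 1.49 CPM in TG, on day 3, and 140.6 and 314.9 CPM in CL, against 2.09 and 1.03 CPM in TG, on day 0 (interaction log2 -3.77, SE 0.60, adjusted p = 0.0288 by edgeR). LOC111884587 had 18.1 and 17.1 CPM in CL, against 6.86 and 4.07 CPM in TG, on day 3, and 55.4 and 45.0 CPM in CL, against 2.32 and 1.52 CPM in TG, on day 0 (interaction log2 -3.02, SE 0.44, adjusted p = 0.0215 by edgeR). LOC111906186 had 10.50 and 12.89 CPM in CL, against 3.62 and 3.69 CPM in TG, on day 3, and 36.1 and 22.2 CPM in CL, against 1.90 and 2.06 CPM in TG, on day 0 (interaction log2 -2.21, SE 0.38, adjusted p = 0.033 by edgeR). In all 3 the CL libraries were lower on day 3 than on day 0 and did not overlap with TG on either day. The day 3 call was lost without any of the 4 libraries for LOC111884587 and LOC111906186 (adjusted p 0.0614 to 0.257), and for LOC111914027 without either TG library (adjusted p 0.0535 without replicate 1 and 0.0858 without replicate 2). The 10th gene, LOC111908419, was lower in CL on both days, at 0.412 and 0.338 CPM in CL, against 4.32 and 2.70 CPM in TG, on day 3, and at 0 counts in CL, against 3.75 and 4.81 CPM in TG, on day 0. Its day 3 call was lost without any of the 4 libraries (adjusted p 0.0833 to 0.319).

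**Figure D5:**
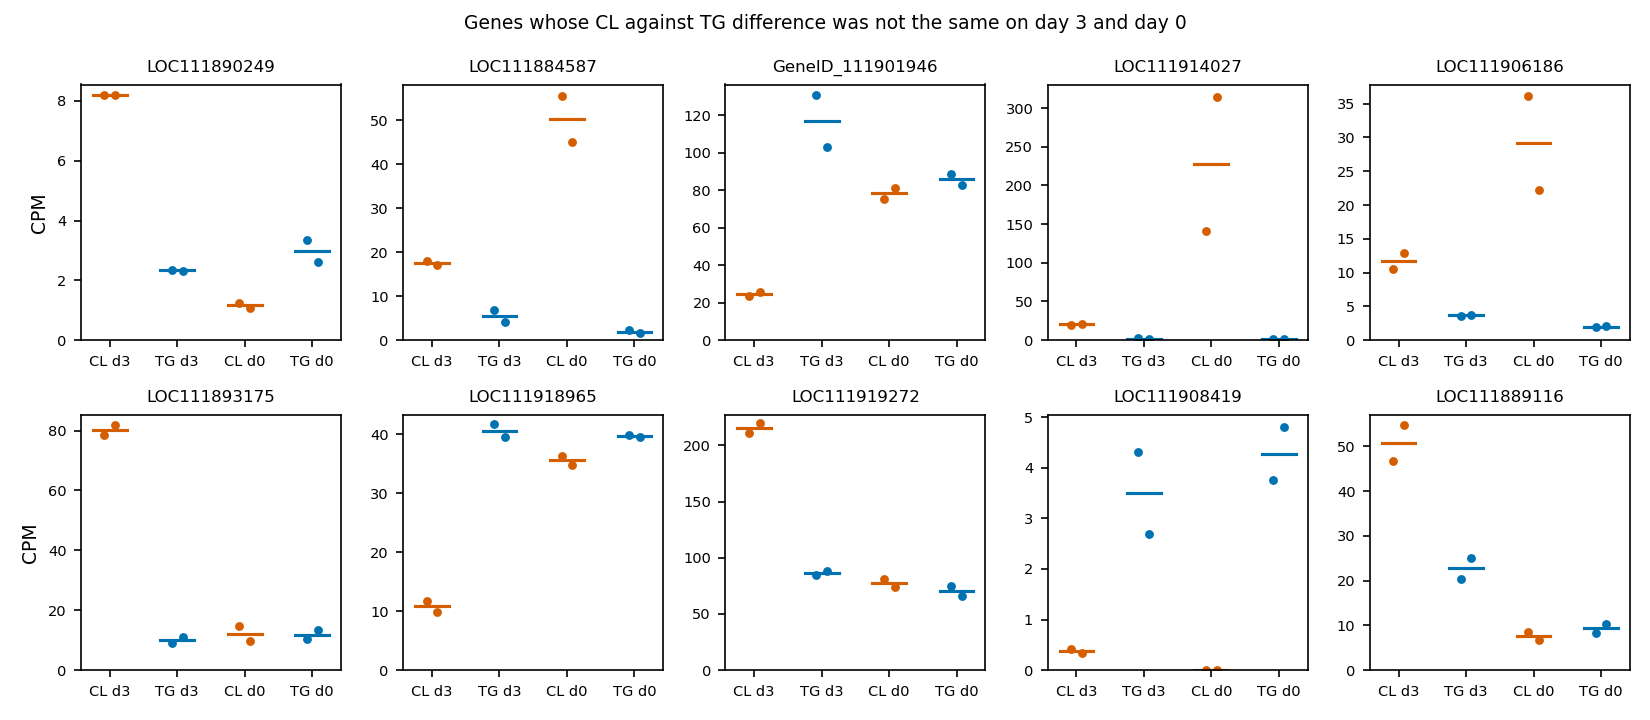
Each panel is 1 of the 10 genes called on day 3 whose CL to TG ratio also differed between the days, with CPM on the y axis (linear, from 0) and the groups CL day 3, TG day 3, CL day 0 and TG day 0 on the x axis; points are libraries and bars are means of 2. In LOC111893175, LOC111919272, LOC111889116 and LOC111890249 the CL day 3 libraries stand above the other 3 groups. In GeneID_111901946 and LOC111918965 they stand below them.

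Called genes sat next to other called genes more often than the other tested genes did, by their order in the reference assembly Lsat_Salinas_v11 (a genome of the cultivar Salinas, used for order only). Of the 156 called genes placed there, 12 had a called gene next to them, on either side, among the tested genes (7.69%), against 1.43% of the genes that were not called. This is a description and was not tested. The shares were 14.8% and 5.86% with the calls of DESeq2. The 12 formed 6 pairs, and in 4 pairs both genes were higher in CL. LOC111879450 had 40.4 and 36.4 CPM in CL, against 3.55 and 1.20 CPM in TG (log2 fold change 4.01, SE 0.45, adjusted p = 0.00314 by edgeR), and the pseudogene LOC111879458 beside it had 18.8 and 18.8 CPM in CL, against 1.14 and 0.290 CPM in TG (log2 fold change 4.70, SE 0.51, adjusted p = 0.00269 by edgeR). Both calls were kept without each library in turn. The sixth pair was LOC111914027, described above, with LOC111889181, which is named to complete the pairs. LOC111889181 had 36.9 and 26.9 CPM in CL, against 8.48 and 4.11 CPM in TG (log2 fold change 2.34, adjusted p = 0.0379 by edgeR). Its log2 fold change ran from 1.91 to 2.94 without each library in turn. It was not called with a replicate block in the model or with no filter on low counts.

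LOC111877211 had 3.97 and 5.35 CPM in CL and 0 counts in TG (at least 38.8-fold, adjusted p = 0.00134 by edgeR), and its neighbour LOC111877212 had 5.58 and 4.56 CPM in CL, against 0.231 and 0 CPM in TG (adjusted p = 0.0432 by edgeR). The call of LOC111877212 was lost without replicate 1 of CL, replicate 2 of CL and replicate 2 of TG (adjusted p up to 0.227). LOC111887034 had 3.68 and 3.29 CPM in CL and 0 counts in TG (at least 29.0-fold, adjusted p = 0.00698 by edgeR), and LOC111887016 beside it had 11.03 and 15.74 CPM in CL, against 1.20 and 0.581 CPM in TG (log2 fold change 3.90, SE 0.50, adjusted p = 0.00626 by edgeR). Without replicate 2 of TG the adjusted p was 0.0522 for LOC111887034 and 0.0674 for LOC111887016, and without replicate 1 of TG it was 0.054 for LOC111887034. In these pairs and that of LOC111879450 and LOC111879458, PC was as high as CL or within 1.5-fold of it, whereas LOC111914027 of the sixth pair had 3.42 and 2.46 CPM in PC.

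In 2 further pairs, neighbouring genes moved in opposite directions. LOC111908475 had 29.5 and 25.5 CPM in CL, against 75.2 and 75.8 CPM in TG (log2 fold change -1.46, SE 0.22, adjusted p = 0.0141 by edgeR). LOC111908474 beside it had 33.7 and 38.1 CPM in CL, against 12.2 and 14.8 CPM in TG (log2 fold change 1.42, SE 0.26, adjusted p = 0.037 by edgeR). LOC111897392 had 1.79 and 2.14 CPM in CL, against 6.15 and 9.23 CPM in TG (log2 fold change -1.97, SE 0.34, adjusted p = 0.0266 by edgeR). LOC111897391 had 4.38 and 4.87 CPM in CL, against 1.504 and 1.286 CPM in TG (log2 fold change 1.73, SE 0.31, adjusted p = 0.0332 by edgeR). PC was on the side of CL in all 4 genes. None of these 4 calls was kept without each library in turn, where the adjusted p reached 0.18 to 0.319, and LOC111908475 and LOC111897391 each overlap a gene other than their partner in the reference assembly.

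By class of gene, 131 of 19259 protein-coding genes were called (0.68%), 91 of them higher in CL and 40 lower. Of 1184 lncRNA genes, 22 were called (1.86%), 14 higher and 8 lower. With DESeq2 the called shares were 3.15% of protein-coding and 3.72% of lncRNA genes, a smaller gap. Of 813 GeneIDs that the name table does not list, 15 were called (1.85%), 8 higher and 7 lower. Of 318 pseudogenes, 3 were called (0.943%, beside 0.786% of all tested genes), all higher in CL. None of the 128 snoRNA genes tested was called, nor any of the fewer misc_RNA, snRNA, tRNA and rRNA genes. At the share of all tested genes, classes of this size would have few calls or none. Among the genes at 0 counts in 1 cultivar, lncRNA genes made up 10 of the 34 present in CL (9 of them called, of 28 called in all). They made up 10 of the 23 present in TG (7 of them called, of 17 in all), and 5.44% of all genes tested. GeneIDs that the name table does not list made up 6 of the 34 and 7 of the 23, beside 813 of the 21757 genes tested. Both lists were drawn from all GeneIDs, and all their members were among the genes tested.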

How the data were processed

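The authors deposited read counts for 64021 rows per sample, identified by NCBI GeneID. Rows were summed to 46150 GeneIDs, of which 7574 stood on more than 1 row. Per the submitters' processing notes, which give neither role nor order, the tools were STAR 2.4.0i, featureCounts, DESeq2, R 3.6.1, Trim Galore and FastQC. Genome build and strand setting: not given in the sources used here. Of the values of 100 or more in day 0 and day 3 libraries, 68.4% to 74.6% were even, as when both mates of a pair are counted, so fragments are fewer than counts. The floor for 0 counts was therefore 6 counts (3 fragments) per library in place of the planned 3 counts, a choice made after seeing the data, and intervals and floors cover counting error only. The day 2 columns that the authors deposited were taken as a score, because 98.9% to 99.8% of their larger values follow within 1 count from the day 0 and day 3 columns. They were left out, except in 1 alternative.

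Libraries of day 0 and day 3 (12 in all, 35603537 to 59153901 counts) entered a single robust quasi-likelihood model in edgeR 4.0.16 (R 4.3.3), with filterByExpr by group at its default minimum count of 10, TMM factors, a mean per cultivar and day and no covariate. Contrasts were tested with glmQLFTest, and p-values were adjusted after Benjamini and Hochberg over 21757 genes, at 0.05. SEs were taken from the log2 fold change and its F. CL replicates correlated at 0.979 and TG replicates at 0.968 (Pearson, log2 CPM, across genes, which are not independent replicates), and CL with TG libraries at 0.953 to 0.956. The halved counts of replicates differed by more than sampling noise (chi-square per degree of freedom 11.2 in CL and 36.8 in TG on day 3).

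Symbols, gene classes and gene order came from a RefSeq table of Lsat_Salinas_v11, which listed 40695 of the GeneIDs. Lists of browning, phenylpropanoid and cell type genes had been defined by product name and could not be applied, because that table gives no products; the classes of gene took their place and were chosen after the data were seen. Named genes were the 12 highest and 12 lowest called log2 fold changes at 5 CPM or more, 5 pairs of neighbours, the 5 lowest interaction p-values among called genes and the genes highest in CPM at 0 counts in 1 cultivar; others are said to be chosen after. The comparison, lists and tests were chosen with earlier results of these data known. Alternatives were RLE factors, no factor, other filters, DESeq2 1.42.0, fewer or more libraries, GeneIDs on 1 row, a replicate block and leaving out each library. The model was also run on simulated data in which 200 genes above 5 CPM were changed 2-fold or 4-fold. No gene there was set to 0 counts in 1 cultivar, and the outcome is not given here.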

Additional observations from a re-analysis of the deposited data

Results flagged for a closer look

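The difference between CL and TG was not the same on day 3 as on day 0 for 214 genes in the interaction test, 10 of which were also called on day 3. The interaction is the log2 fold change of CL over TG on day 3 minus that on day 0. It was positive for LOC111908419 (7.41, a fitted value that depends on the prior count, since CL had 0 counts on day 0), LOC111890249 (3.15), LOC111893175 (2.96), LOC111889116 (1.45) and LOC111919272 (1.19). It was negative for LOC111914027 (-3.77), LOC111884587 (-3.02), LOC111906186 (-2.21), GeneID_111901946 (-2.11) and LOC111918965 (-1.75). Groups of 2 libraries are too small to look for a library far from the others.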

How the results depend on the processing

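The 171 calls of CL against TG on day 3 became 184 with RLE factors, 190 without a factor, 180 with a stricter filter and 175 for GeneIDs on 1 row, and 270 with no filter, 456 with all 18 columns, 697 with DESeq2 (354 higher and 343 lower, all 171 among them), 761 in the 4 libraries alone (437 and 324) and 1169 in the 6 day 3 libraries (648 and 521). Leaving out 1 library gave 60 to 71. Deviations of same-numbered CL and TG day 3 libraries correlated at 0.06, which cannot settle whether replicate numbers pair the samples. The replicate block gave 127 calls (120 of the 171), against 4278 on day 0 and 194 for the interaction. The 4596 calls of day 0 became 2182 in the 4 day 0 libraries, 6015 with no factor and 6263 with DESeq2, and 2594 to 3195 without 1 library. The 214 interaction calls became 489 with no factor (398 and 91), 493 with no filter, 1462 with DESeq2, 307 in the 8 CL and TG libraries, and 1 to 678 without 1 library. Where a library is left out, the lone library of its group is assumed to vary like the other groups. Protein-coding and lncRNA calls were 607 and 44 with DESeq2 (3.15% and 3.72%), and 37 to 45 and 14 to 15 without 1 library. The share of called genes beside a called gene was 14.8% with DESeq2 (5.86% of the other genes) and 14.9% in the 4 libraries (7.1%). No named gene changed sign in any setting; the cause of the other changes was not tested. The alternatives planned for product-name lists were not run. Of genes under 1 CPM, 0.149% were called, and what depth does to that share was not tested. Lower bounds were planned against 3 counts per library (0.06 CPM in TG), which would make each of them 2 times higher.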
